A study of Homo sapiens with 9 samples.

Results

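The receptor kinase genes ROR1, EGFR, MET, ERBB2 and ERBB3 were examined for occupancy by the transcription factors NKX2-1 and FOXA1 in lung adenocarcinoma cells. The members were the peaks that overlapped 1 of 5 windows of the human genome build hg18, each laid around 1 gene: chr1:63960000-64480000 for ROR1, chr7:55000000-55300000 for EGFR, chr7:116050000-116280000 for MET, chr17:35050000-35190000 for ERBB2 and chr12:54710000-54830000 for ERBB3. The windows were set by gene position and not by any measured value, but the genes and lists were chosen with earlier results of these data known. They held 191 of the 125904 peaks of all lists, with 57 at ROR1, 40 at EGFR, 52 at MET, 16 at ERBB2 and 26 at ERBB3. The peaks nearest to the window edges lay 5.66 to 35.8 kb inside them and 1.61 to 101 kb outside them.

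Occupancy was mapped by chromatin immunoprecipitation and sequencing (ChIP-seq) in 3 established lines, each derived from a lung adenocarcinoma and each with amplified NKX2-1 per the labels: NCI-H1819, NCI-H2087 and NCI-H3122. The labels name no treatment, and all lines were grown in RPMI1640 medium with serum. NKX2-1 was precipitated with the Bethyl Laboratories antibody BL4000, in 2 libraries of H3122 (replicates 1 and 2) and 1 library each of H1819 and H2087, and FOXA1 with the Abcam antibody ab23738 in 1 library of H3122. No line without the amplification was among those analysed here, FOXA1 was analysed in H3122 only, and the labels do not say whether the H3122 pair came from separate cultures. The NKX2-1 lists of H3122 held 7469 (replicate 1) and 48071 peaks (replicate 2), that of H1819 held 13486, that of H2087 held 14441 and the FOXA1 list 42437. Read depth is unknown for every list. Where a peak is missing, a short list and an unoccupied site cannot be told apart, and peak numbers were not compared between lines as amounts of binding. Apart from the H3122 pair there were no replicates, so no test was run, and every difference between lines is a difference between single lists.

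Receptor tyrosine kinases span the cell membrane, bind a ligand outside the cell and start signalling through kinase cascades inside it. EGFR, ERBB2 and ERBB3 belong to one family and signal as pairs: EGFR binds EGF and related ligands, ERBB2 has no known ligand and serves as a partner, and ERBB3 binds neuregulins but has little kinase activity of its own. MET is the receptor of hepatocyte growth factor, and ROR1 is a receptor-like protein of the Wnt5a pathway that has been described as a target of NKX2-1 sustaining EGFR and ERBB3 signalling in lung adenocarcinoma. NKX2-1 is a homeodomain factor of lung and thyroid development, and FOXA1 is a forkhead pioneer factor that opens chromatin in endodermal tissues.

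Peaks at gene starts were examined first, and the starts are shown as sequence because the peaks nearest to them differed between genes. The starts of ROR1, EGFR and MET lie at 64.012 Mb of chromosome 1 and at 55.054 and 116.100 Mb of chromosome 7 in hg18, known here to the nearest kb. At that precision, an NKX2-1 peak lay at the ROR1 start in H3122 replicate 2 (score 242) and in H2087 (score 217), and 1 lay at the MET start in H3122 replicate 2 (score 117). At EGFR the nearest peak of any list began about 1 kb past the start, in H3122 replicate 2, with a score of 61.4. The promoter sequences below are those of RefSeq in build GRCh38.p14, plus strand, at chr1:63773767-63774036 for ROR1, chr7:55018767-55019036 for the first of the EGFR entries and chr7:116671946-116672215 for MET. These coordinates cannot be set against the hg18 coordinates of the peaks. Each sequence runs from 250 bases before the start to 20 bases after it, and capitals mark CAAG, the core of the NKX2-1 motif, or its reverse complement CTTG.
ROR1: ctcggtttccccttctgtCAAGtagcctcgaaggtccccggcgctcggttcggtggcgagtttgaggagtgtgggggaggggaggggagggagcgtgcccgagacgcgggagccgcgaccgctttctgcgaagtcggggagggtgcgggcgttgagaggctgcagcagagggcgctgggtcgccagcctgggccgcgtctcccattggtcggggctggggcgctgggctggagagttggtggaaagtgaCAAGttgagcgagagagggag
EGFR: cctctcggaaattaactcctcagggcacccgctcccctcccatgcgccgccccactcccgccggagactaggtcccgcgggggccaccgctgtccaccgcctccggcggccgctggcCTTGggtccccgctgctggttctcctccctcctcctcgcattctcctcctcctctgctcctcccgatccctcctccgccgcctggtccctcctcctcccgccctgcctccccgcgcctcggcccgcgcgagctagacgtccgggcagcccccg
MET: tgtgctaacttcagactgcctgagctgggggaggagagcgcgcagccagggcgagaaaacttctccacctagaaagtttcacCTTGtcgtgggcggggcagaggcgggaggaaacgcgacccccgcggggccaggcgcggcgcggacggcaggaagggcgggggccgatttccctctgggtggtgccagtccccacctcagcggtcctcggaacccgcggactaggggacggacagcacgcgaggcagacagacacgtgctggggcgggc
ROR1 held 2 cores, of which 1 began 232 bases before the start and the other lay across the start itself. EGFR held 1 core, 133 bases before the start, and MET held 1, 168 bases before the start. The second EGFR entry and the ERBB2 promoter, not shown, held no core on either strand, and no ERBB3 promoter sequence was available. The core is common: 83.2% of the 35116 RefSeq promoter sequences of this length held it on either strand. The longer TCAAG or its reverse CTTGA, which contains the core, was in the ROR1 sequence and in no other sequence shown. Of all promoters, 31.1% held it. None of the 3 sequences held TCAAGTG, found with its reverse CACTTGA in 2.25% of promoters, or the forkhead motifs TGTTTAC (3.20%, with GTAAACA) and TGTTTGC (3.49%, with GCAAACA).

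Each window held NKX2-1 peaks in all 3 lines, although for H3122 at EGFR and ERBB2 in replicate 2 only. In the order H3122 replicate 1, H3122 replicate 2, H1819 and H2087, the ROR1 window held 5, 20, 3 and 10 NKX2-1 peaks, and the EGFR window 0, 13, 8 and 11. The MET window held 5, 19, 4 and 8, the ERBB2 window 0, 10, 2 and 1, and the ERBB3 window 2, 8, 6 and 7. Replicate 1, the shortest list, had no peak at EGFR or ERBB2, as was the case in 58.4% and 75.6% of all genomic windows of the same 2 lengths. FOXA1 had 19 peaks at ROR1, 8 at EGFR, 16 at MET and 3 each at ERBB2 and ERBB3.

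Since the lists differ in length, the density in each window was divided by the mean density of its own list. Summed over the 5 windows, peaks were denser than the mean in every list: 3.77-fold in H3122 NKX2-1 replicate 1 (exact 95% binomial interval 1.95 to 6.59), 3.42-fold in replicate 2 (2.67 to 4.32), 4.01-fold in H1819 (2.54 to 6.01), 6.02-fold in H2087 (4.24 to 8.29) and 2.71-fold for FOXA1 (2.01 to 3.59). These intervals cover counting error only. The mean includes gene-free stretches of the genome, and the part of gene content in these values was not tested. By window, H1819 and H2087 were densest at ERBB3, at 11.4 (4.19 to 24.8) and 12.4 (5.0 to 25.6) times the mean, and both H3122 NKX2-1 lists at MET, at 8.96 (2.91 to 20.9) and 5.29 (3.18 to 8.26). The intervals of neighbouring windows overlapped widely, so this order is not firm. With windows 50 kb wider on each side H1819 was at 6.22 at ERBB3 and 6.28 at EGFR, and at scores of at least 100 replicate 2 was at 6.43 at ERBB3 and 6.29 at MET.

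**Figure D1:**
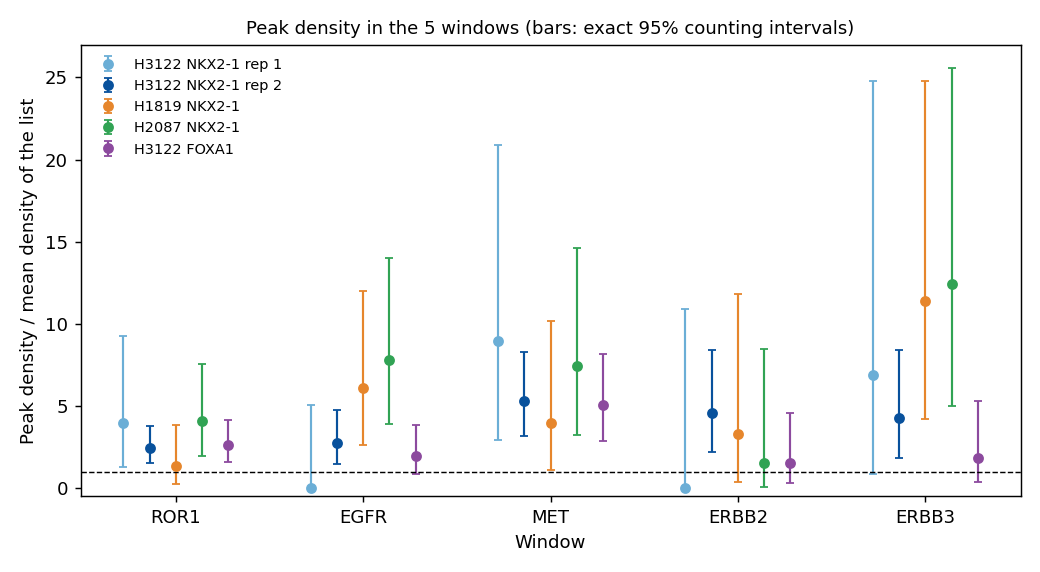
Peak density of each list in each window, divided by the mean density of that list (vertical axis, linear); points are single lists, bars are exact 95% intervals of the peak count, and the dashed line marks the mean. H1819 and H2087 stand highest at ERBB3 (11.4 and 12.4), and the H3122 NKX2-1 replicate 1 points at EGFR and ERBB2 lie at 0.

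The NKX2-1 peaks merged into 84 regions, of which 4 (4.76%) had a peak in all 4 NKX2-1 lists, against 1.61% of all merged NKX2-1 regions of the genome. At least 3 of the 4 lists had a peak in 16 regions (19.0%), against 8.13% genome-wide, and 47 regions (56.0%) were in a single list, against 71.8%. The regions common to all lists were 1 at ROR1, 1 at MET and 2 at ERBB3. Their number rested on the short replicate 1: without it, 12 regions were common to the 3 lines, of which 6 were at ERBB3, 3 at ROR1 and 1 at each other gene. The genome-wide share of such regions without replicate 1 was not computed, and the 1.61% does not apply to them. The overlap of H1819 and H2087 was set against that of the whole lists. H2087 had a peak on 13 of the 23 H1819 peaks (56.5%, 34.5 to 76.8), against 22.8% of the whole H1819 list, and H1819 on 13 of the 37 H2087 peaks (35.1%, 20.2 to 52.5), against 21.0%, which the second interval includes. These shared peaks were uneven, with 6 of the H1819 peaks at ERBB3, 3 at ROR1, 2 at EGFR and 1 each at MET and ERBB2. H3122 replicate 2 had a peak on 11 of the 12 replicate 1 peaks (against 81.7% of that list), on 15 of the 23 H1819 peaks (against 53.4%) and on 30 of the 37 H2087 peaks (against 67.7%).

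Scores are the authors' values, read as 10 times the negative log10 of a p-value, and were compared only by rank within a list: a percentile is the share of the list's peaks with a lower score. At ROR1 the H2087 peaks ranked high, with a median percentile of 85.5 and 5 of 10 in the highest decile of the list, while 2 of 20 H3122 replicate 2 peaks were in theirs. The H2087 medians were also high at ERBB3 (80.7) and EGFR (76.7), but not at MET (52.8). At ERBB2 H2087 had only 1 peak, at percentile 47.4. MET held 6 of 19 replicate 2 peaks in the highest decile. EGFR held none of its 13, and ERBB2 none of its 10. No ERBB2 peak of an NKX2-1 list ranked far above the middle of its list: the highest stood at percentile 52.6 for H3122 replicate 2, 33.6 for H1819 and 47.4 for H2087.

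**Figure D2:**
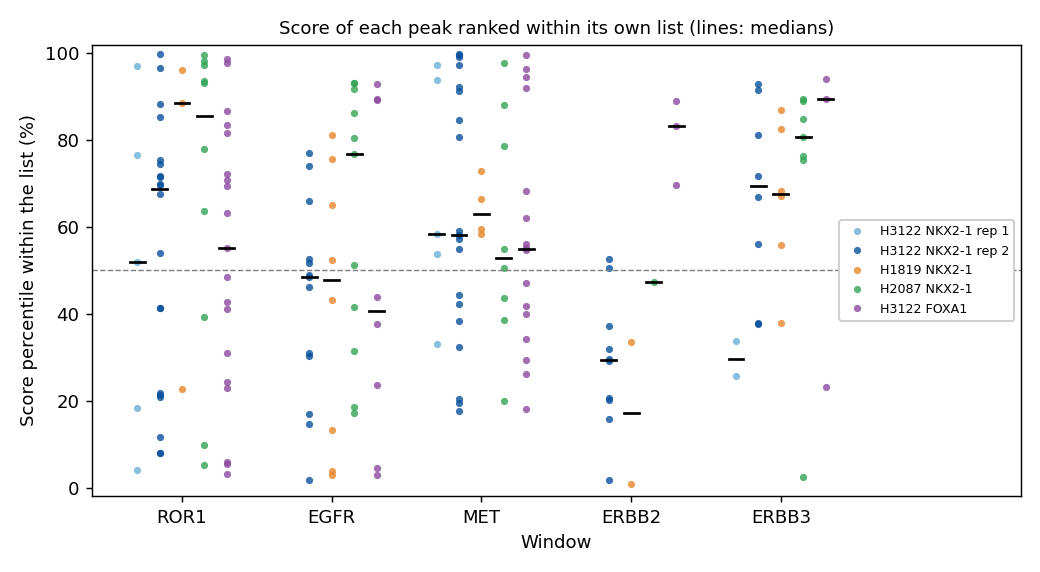
Score percentile of each peak within its own list (vertical axis, percent) by window; each point is 1 peak, black lines are medians, and the dashed line marks the median of a list. H2087 peaks at ROR1 have a median of 85.5, and no ERBB2 peak of an NKX2-1 list lies above 52.6.

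In the ROR1 window, the longest of the 5, peaks lay from 42 kb before the start to 458 kb after it. A region about 22 kb past the start (chr1:64032884-64034530) had a peak in all 4 NKX2-1 lists. It scored 101 in H3122 replicate 1, 226 in replicate 2, 419 for H1819 and 3100 for H2087. By rank it stood at percentiles 76.6, 69.7, 88.6 and 99.5 of these lists, so H2087 was the line in which it ranked highest. FOXA1 had only a weak peak there, with a score of 62.1 at percentile 3.15.

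A cluster of ROR1 regions lay between 95 and 147 kb past the start. The region at 95 kb (chr1:64106022-64107126) scored 74.7 and 984 in the H3122 replicates and 907 in H2087, had a FOXA1 peak of 394, and had no H1819 peak. The region at 104 kb (chr1:64115343-64116948) scored 229 in H3122 replicate 2, 77.8 for H1819 and 1486 for H2087, and that at 147 kb (chr1:64158241-64159392) scored 115, 813 and 867 in the same order. Neither of these had a FOXA1 or a replicate 1 peak. The 147 kb region ranked at percentile 96.2 in H1819 and 93.2 in H2087 but at 41.3 in H3122 replicate 2. The wide region at 100.3 kb (chr1:64111184-64113500), with 1885 in H2087 and 241 in replicate 2, was absent from H1819. H1819 thus had 3 peaks in the whole window, at 22, 104 and 147 kb, and each lay on a peak of both H2087 and H3122 replicate 2. For either overlap the interval of this share was 29.2 to 100%. It includes the 53.4% of the whole H1819 list on replicate 2 peaks, but not the 22.8% on H2087 peaks. H2087 peaks at ROR1 were also wide, with a median of 982 bp against 592 bp in its whole list. This was not particular to ROR1: the medians were 944 bp at ERBB3 and 900 bp at EGFR, but 600 bp at MET. The only H2087 peak at ERBB2 was 590 bp wide.

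Beyond 150 kb, a stretch that makes up 61.2% of the ROR1 window, H3122 replicate 2 had 12 of its 20 peaks and FOXA1 12 of its 19, close to the share of the length. H2087 had 3 of its 10 peaks there and H1819 0 of 3. The strongest H3122 NKX2-1 peak of the window lay 456 kb past the start (chr1:64467442-64468252), with scores of 228 in replicate 1 and 3100 in replicate 2, at percentiles 97.1 and 99.8. Neither H1819 nor H2087 had a peak that overlapped that region, and FOXA1 scored 134 there. A low H2087 peak lay beside it without overlap (chr1:64466611-64466925), with a score of 67 at percentile 9.91. The strongest FOXA1 peak, with a score of 1934 at 399 kb (chr1:64410571-64411339), overlapped NKX2-1 peaks of H2087 (117) and replicate 2 (116), both below the median of their lists, which did not overlap each other. Another FOXA1 peak, of 1553 at 233 kb, lay on an NKX2-1 peak of 481 seen in H3122 replicate 2 alone. Which gene these distant regions belong to is not known here: in the RefSeq order, ROR1 is followed by UBE2U and CACHD1.

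At EGFR the H1819 peaks lay mostly apart from those of H3122. H3122 replicate 2 and H2087 met 33 kb before the start and along a stretch from 37 to 114 kb past it, with 7 of the 11 H2087 peaks on a replicate 2 peak (against 67.7% of the list). Of the 8 H1819 peaks, 1 overlapped replicate 2 (12.5%, 0.316 to 52.7; against 53.4% of its whole list), and 2 overlapped H2087 (25.0%, 3.19 to 65.1; against 22.8%, so about as often as elsewhere). The other 6 lay in regions of no other NKX2-1 list. They were at 8, 86, 92, 191, 193 and 231 kb past the start, of which that at 193 kb (chr7:55246965-55247504) scored highest, at 291 or percentile 81.1.

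**Figure D3:**
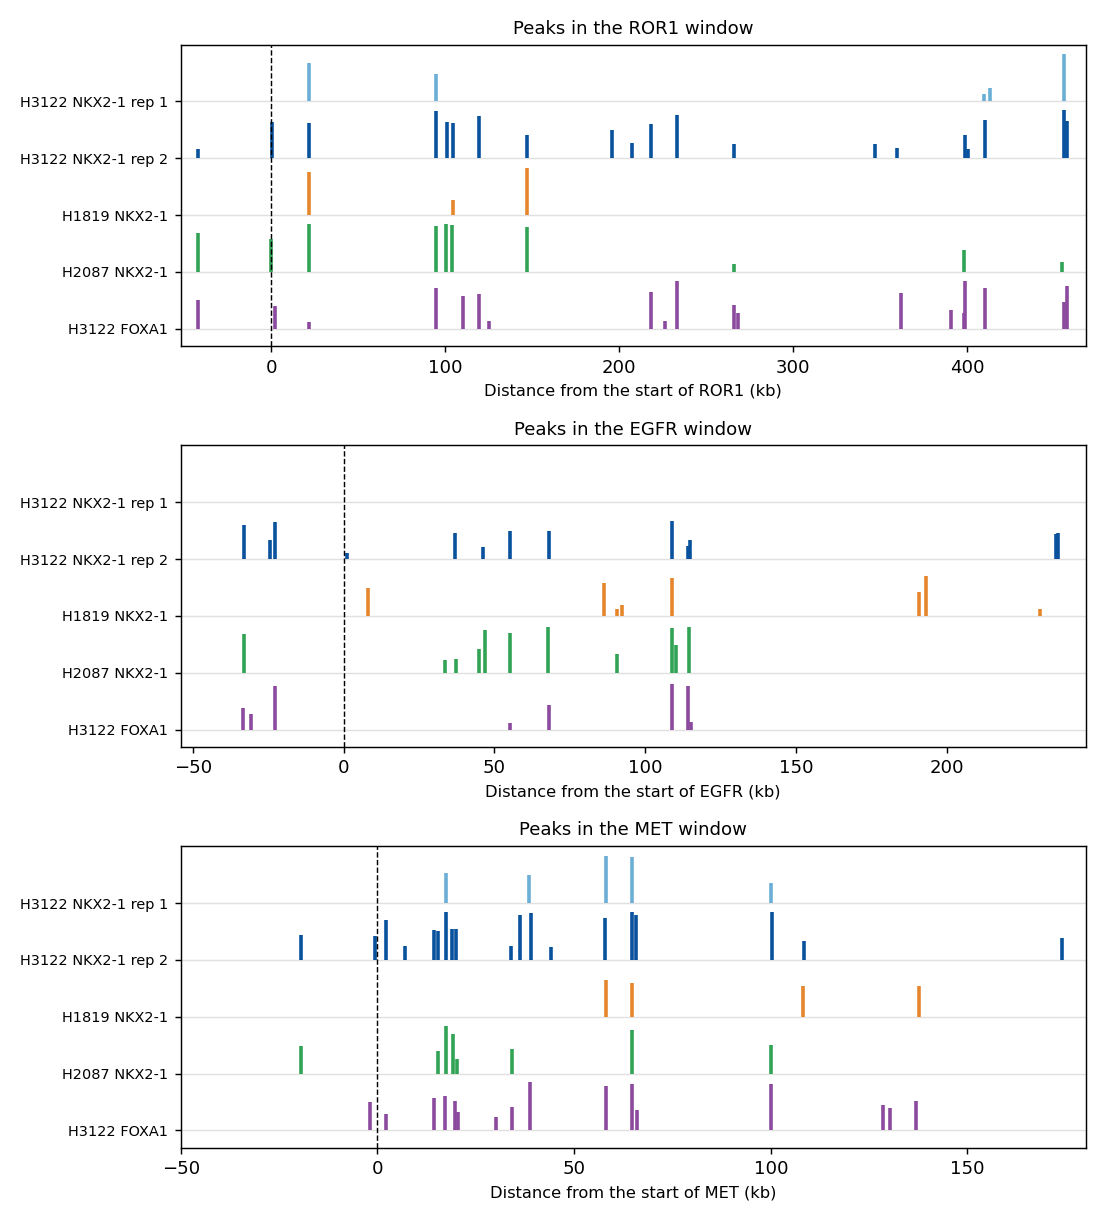
Position of each peak as its distance in kb from the start of ROR1, EGFR or MET (horizontal axes, dashed line at the start), with 1 lane per list; the height of a bar rises with the score percentile of the peak within its list, from a fixed minimum. At EGFR the replicate 1 lane is empty and most H1819 bars stand apart from those of the other lanes, while at MET all 5 lanes have a bar at 65 kb.

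A single EGFR region, about 109 kb past the start (chr7:55162414-55163649), had NKX2-1 peaks in all 3 lines, although not in replicate 1. It scored 289 in H3122 replicate 2, 240 for H1819 and 753 for H2087. It was the highest of the window for replicate 2, at percentile 77.0, and it carried the highest FOXA1 peak, of 825 at percentile 92.9. The region at 68 kb (chr7:55120992-55122614) held the highest H2087 peak, of 870, beside 146 in replicate 2 and a FOXA1 peak of 121. The regions at 47 kb (chr7:55099954-55101521) and 114 kb (chr7:55167614-55169293) followed the same pattern, with 522 and 853 in H2087 and 73.5 and 94.5 in replicate 2. H2087 thus had 3 EGFR peaks in the highest decile of its list and replicate 2 had none. Among the 7469 best peaks of each list, replicate 2 kept 0 of its 13 EGFR peaks, H1819 kept 4 and H2087 kept 7. That cut takes more from a long list: the whole lists held 48071, 13486 and 14441 peaks in that order. The counts kept were therefore not compared between lines. Of the 8 FOXA1 peaks, 7 lay on a replicate 2 peak (87.5%, 47.3 to 99.7), against 54.5% of the whole FOXA1 list, which the interval includes.

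ERBB2 was the window in which H3122 replicate 2 and H1819 peaks had their lowest median score percentile, although not the one in which they were sparsest. H3122 replicate 2 had 10 peaks with scores from 61.3 to 146, and only 3 of them reached 100. The median percentile of these 10 was 29.3. A region at chr17:35097493-35098153 had NKX2-1 peaks in all 3 lines, with scores of 97.0 in replicate 2, 60.2 for H1819 and 140 for H2087, and no FOXA1 peak. The other H1819 peak (92.2) met replicate 2 (74.6) and FOXA1 (241) at chr17:35179590-35180232. When each list was shortened to the 7469 best peaks, no NKX2-1 list kept a peak in the window. That cut removed most of the 48071 replicate 2 peaks, wherever they lay. FOXA1 ranked higher than NKX2-1 here: its 3 peaks scored 604, 427 and 241, at percentiles 89.0, 83.2 and 69.6, and each lay on a low replicate 2 peak (61.3, 80.3 and 74.6). Of the whole FOXA1 list, 54.5% lay on a replicate 2 peak. The start of ERBB2 in hg18 is not given here, and other genes, PGAP3, MIEN1 and GRB7 among them, lie beside it in the RefSeq order.

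At ERBB3 the lines shared most of their regions. Of its 9 NKX2-1 regions, 6 (66.7%) had a peak in at least 3 lists, against 8.13% genome-wide and at most 20% at the other genes. Each of the 6 was in all 3 lines when replicate 2 stood for H3122. All 6 H1819 peaks lay on peaks of both H3122 replicate 2 and H2087, and 6 of the 7 H2087 peaks on peaks of both other lists. Of the whole H1819 list, 53.4% lay on a replicate 2 peak and 22.8% on an H2087 peak. For the whole H2087 list the shares were 67.7% on replicate 2 and 21.0% on H1819. The whole-list share on both at once was not computed. The region at chr12:54759488-54760570 had a peak in all 4 lists, with scores of 65.9 in H3122 replicate 1, 589 in replicate 2, 310 for H1819 and 486 for H2087. So did the region at chr12:54721414-54722415, with 61.2, 241, 182 and 331. The replicate 1 scores of these regions were low, at percentiles 33.7 and 25.6.

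The other 4 ERBB3 regions common to the lines lacked only replicate 1. The highest, at chr12:54783856-54784815, scored 667 in H3122 replicate 2, 382 for H1819 and 640 for H2087, the top score of each of these lists in the window. The region at chr12:54807446-54808905 scored 341, 190 and 624 in the same order, that at chr12:54796157-54797120 scored 209, 140 and 317, and that at chr12:54797872-54798826 scored 107, 99.7 and 398. At the highest region the ranks were percentiles 93.0, 87.0 and 89.5, but at chr12:54797872-54798826 they were 37.7, 37.9 and 80.7, so H2087 stood higher there than the other lines. The start of ERBB3 in hg18 is not given here. In the RefSeq order the gene stands between RPS26 and PA2G4, with RPL41, ZC3H10 and ESYT1 next, and which of these genes a region belongs to is not known here.

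**Figure D4:**
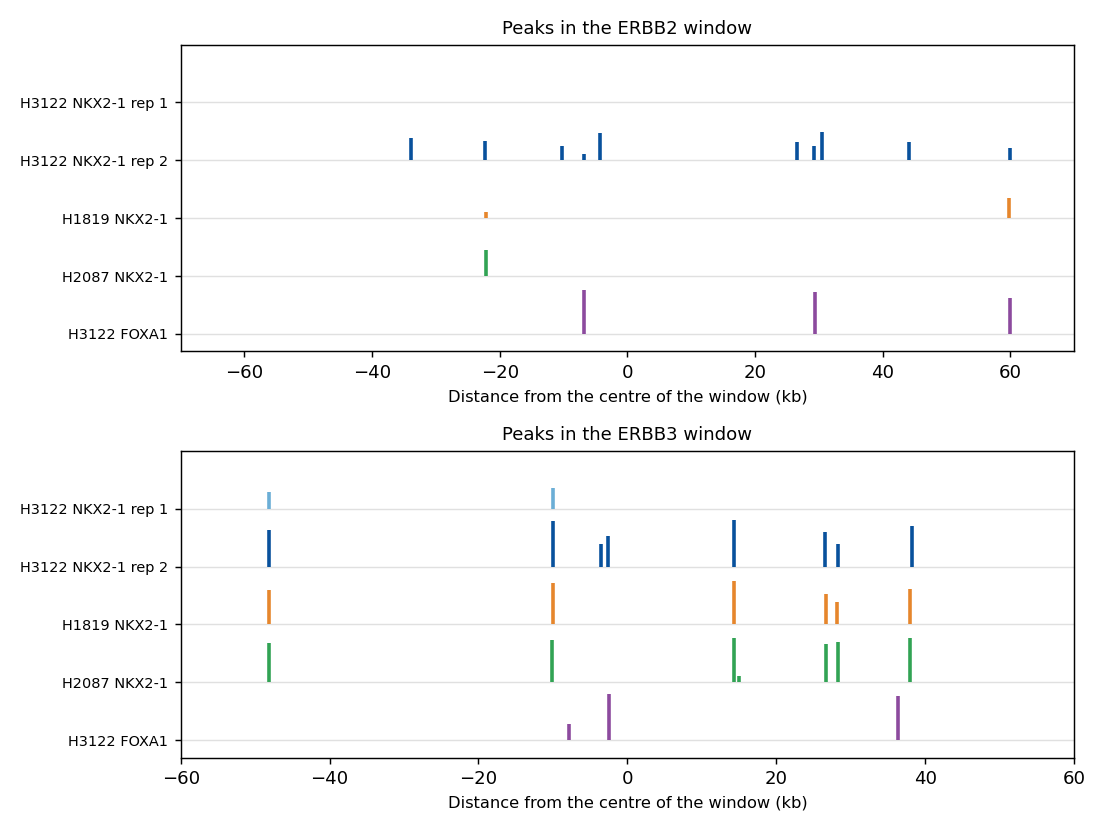
Position of each peak as its distance in kb from the centre of the ERBB2 or ERBB3 window (horizontal axes), with 1 lane per list; the height of a bar rises with the score percentile of the peak within its list, from a fixed minimum. At ERBB3 the H3122 replicate 2, H1819 and H2087 lanes share 6 positions, none of which has a FOXA1 bar on it.

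For both NKX2-1 replicates and FOXA1 in H3122, MET was the densest of the 5 windows, except for replicate 2 at scores of at least 100. Of genomic windows of 230 kb, 99.4% held fewer replicate 1 peaks, 99.5% fewer replicate 2 peaks and 99.3% fewer FOXA1 peaks. For H1819 and H2087 the figures were 92.1% and 98.2%. Many of these windows were empty: 64.9% held no replicate 1 peak, 24.9% no replicate 2 peak and 25.3% no FOXA1 peak. Such ranks were not particular to MET, since ERBB3 stood at 99.4% for both H1819 and H2087 among windows of its own length. The first 50 kb past the MET start, 21.7% of the MET window, held 11 of 19 peaks in H3122 replicate 2, 5 of 8 in H2087 and 8 of 16 for FOXA1. Replicate 1 had 2 of 5 there and 3 of 5 between 50 and 150 kb. H1819 had none of its 4 peaks there and all 4 between 58 and 138 kb.

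The MET region about 65 kb past the start (chr7:116164305-116165252) had peaks in all 4 NKX2-1 lists and a strong FOXA1 peak. NKX2-1 scored 178 in H3122 replicate 1, 2986 in replicate 2, 180 for H1819 and 586 for H2087, and FOXA1 scored 1226. By rank it stood at percentiles 93.9 and 99.8 in H3122, 88.1 in H2087 and 66.4 in H1819. The region at 17 kb (chr7:116116936-116118009) scored 79.2 and 2419 in H3122 and 1646 in H2087, the highest H2087 peak of the window. The region at 100.3 kb (chr7:116199746-116200773) scored 65.5 and 1776 in H3122 and 169 in H2087, with a FOXA1 peak of 971. Neither had an H1819 peak. At 58 kb (chr7:116157374-116158548) the lists that met were those of H3122 and H1819, with 234, 396 and 218, and H2087 had none. The highest FOXA1 peak of all 5 windows, of 2877 at 39 kb (chr7:116137765-116139585), lay on NKX2-1 peaks of 75.3 and 1135 in H3122 and on none in the other lines. Every replicate 1 peak at MET, 5 of 5, lay on both a replicate 2 and a FOXA1 peak, and all 8 H2087 peaks lay on a replicate 2 peak. Over the whole lists, 81.7% of replicate 1 and 67.7% of H2087 peaks lay on a replicate 2 peak. The share of the whole replicate 1 list on a FOXA1 peak was not computed, and the 81.7% does not apply to it.

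FOXA1 met NKX2-1 at these genes about as often as elsewhere, with shares that varied between windows within wide intervals. Of the H3122 replicate 2 peaks in the 5 windows, 32 of 70 (45.7%, 33.7 to 58.1) overlapped a FOXA1 peak, against 47.8% of the whole list. The share was 11 of 20 at ROR1, 7 of 13 at EGFR, 10 of 19 at MET, 3 of 10 at ERBB2 and 1 of 8 at ERBB3 (12.5%, 0.316 to 52.7). Each of these intervals includes the share of the whole list. Replicate 1 had FOXA1 on 8 of its 12 peaks (66.7%), with 0 of 2 at ERBB3. The FOXA1 share of the whole replicate 1 list was not computed, and the 47.8% belongs to replicate 2. Over merged regions FOXA1 was in 33 of 84 (39.3%), against 39.7% of all NKX2-1 regions.

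**Figure D5:**
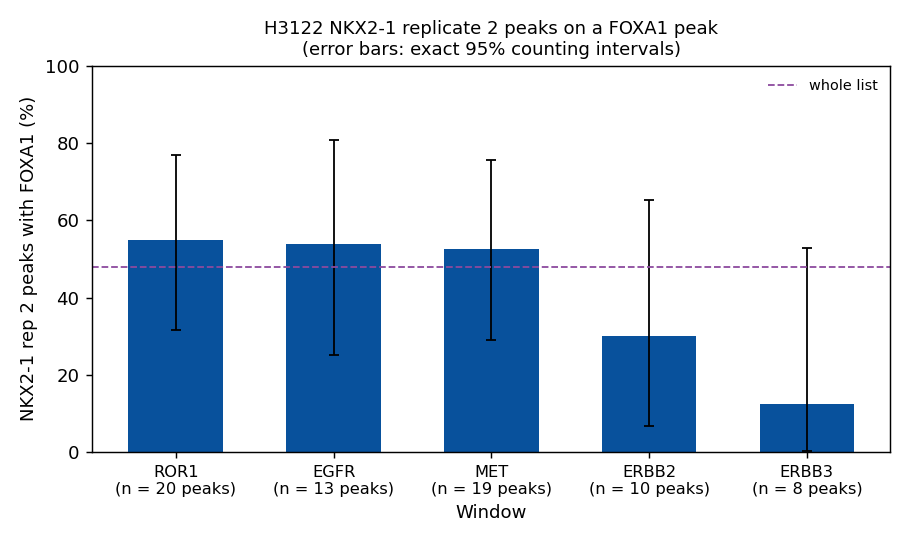
Share of H3122 NKX2-1 replicate 2 peaks that overlap an H3122 FOXA1 peak (vertical axis, percent) by window; error bars are exact 95% binomial intervals of the peak count and the dashed line is the share over the whole list, 47.8%. ROR1, EGFR and MET lie between 52.6% and 55.0%, and ERBB3 lies at 12.5% with an interval that includes the dashed line.

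The regions shared by at least 3 NKX2-1 lists carried FOXA1 in 52.8% of cases genome-wide. In the windows FOXA1 was in 7 of the 16: 4 of 4 at MET, 2 of 4 at ROR1, 1 of 1 at EGFR, 0 of 1 at ERBB2 and 0 of 6 at ERBB3. Regions of 1 window share chromatin and are not replicates, so no test was made of this difference. At ERBB3 FOXA1 had a peak of 922 (percentile 94.1) on a peak found in replicate 2 alone (158, percentile 56.1). Its peaks of 626 (chr12:54806114-54806620) and 81.8 (chr12:54761884-54762411) lay on no NKX2-1 peak of any list. They stood beside the shared regions chr12:54807446-54808905 and chr12:54759488-54760570 without overlap, so the count of 0 at ERBB3 holds for overlap only. Of the 49 FOXA1 peaks, 33 (67.3%, 52.5 to 80.1) lay on a replicate 2 peak, against 54.5% of the whole FOXA1 list. On no NKX2-1 peak of any list lay 15: 7 at ROR1, 5 at MET, 2 at ERBB3, 1 at EGFR and none at ERBB2. The share of the whole FOXA1 list on no NKX2-1 peak was not computed, so whether 15 is many or few is not known.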

How the data were processed

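Reads were aligned with Bowtie and peaks called with MACS 1.4.0 on build hg18, per the submitters' processing notes. Each of the 5 deposited lists held the peaks of 1 library, per the labels, with a score for each peak that the authors gave and that was used only for ranks within a list. The 4 input libraries were not analysed here, and depth is unknown. Calling thresholds, and which input went with which list, were not given in the sources used here. Within lists, scores started at 50 for NKX2-1 replicate 1 of H3122 and at 60 for the other lists.

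Windows and starts came from the rule for the members; coordinates are 1-based. A peak belonged to a window, and peaks were shared, at an overlap of at least 1 bp. Overlapping NKX2-1 peaks were merged into regions, and H3122 counted as occupied where both replicates had a peak, unless stated. Mean densities used the span of all peaks on each assembled chromosome, 3077 Mb in all, and windows of equal length were laid end to end along it. Intervals are exact binomial 95% intervals. Promoters of 4 of the 5 genes matched the RefSeq table by symbol. Regions named were, per window, the highest peak of each list, regions in at least 3 NKX2-1 lists or all 3 lines, the one nearest the start and the highest found in 1 line. The regions at 100.3 and 233 kb of ROR1, at 47 and 114 kb of EGFR and those beside FOXA1 peaks were added after their values were seen. So was the H2087 peak beside the strongest H3122 NKX2-1 region of ROR1. The members and lists were chosen with earlier results of these data known. Alternatives changed score limits, list length, overlap, merging, window edges, chromosomes and the H3122 lists. The overlap code was tested on simulated data. Python 3.11.15 was used with numpy 2.4.6, scipy 1.17.1, pandas 2.3.3 and matplotlib 3.10.9.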

Additional observations from a re-analysis of the deposited data

How the results depend on the processing

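Of 340 values recomputed under the alternatives, 285 stayed within 1.5 times a count or within the counting interval of a density or share, and 55 moved. This tally does not measure robustness, since many of the values could not move. Every peak lay at least 5.66 kb inside its window, so the window midpoint rule could change no count. All lists but replicate 1 started at a score of 60, and replicate 1 was already the shortest list. Some density intervals were also wide, such as 0.832 to 24.8 for replicate 1 at ERBB3. Restriction to autosomes, midpoint rules, merging at 500 bp and a stricter overlap rule moved none. Shortening the lists to 7469 peaks moved the most values, 25 of 60: H3122 NKX2-1 replicate 2 fell to 13 peaks over the 5 windows, with none left at EGFR or ERBB2, H1819 to 15 and FOXA1 to 15, while the FOXA1 density rose to 4.72 times its mean. At scores of at least 100, replicate 1 kept 4 peaks, 2 regions were in all 3 lines, and FOXA1 was on 0% of the 3 ERBB2 peaks left in replicate 2.

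The H3122 list used also moved values. Leaving out 1 replicate gave from 4 to 12 regions in all 3 lines, the higher number without replicate 1, and from 51 to 83 merged NKX2-1 regions, the lower without replicate 2. With replicate 1 in the place of replicate 2, the share of peaks with FOXA1 was 66.7% over the windows, 100% at MET (5 peaks) and 0% at ERBB3 (2 peaks). No share over the whole replicate 1 list was computed beside these. At EGFR and ERBB2 replicate 1 gave no share, since it had no peak there. No paired analysis was possible because H3122 alone had 2 NKX2-1 lists and no result came from a test. Small counts limit every comparison between windows, and depth is unknown.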
